A study of Mus musculus with 7 samples.

Results

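Lysosomal genes were followed in J-1 mouse embryonic stem cells that carried a hairpin RNA against Mettl3. The set holds 35 named genes: hydrolases of sugars, proteins, lipids and sulfate esters, their soluble cofactors, membrane proteins of the lysosome, and the transcription factor Tfeb. Members were the probe sets whose gene symbol in the array annotation is exactly one of those names. That found 34 of the 35 genes, with 617 of the 1201338 probe sets on the array, among 16353 genes tested. The name Tfeb is absent from the annotation, which lists this gene under its older symbol Tcfeb, so its values are given beside the 34. Naaa was chosen by its measured rise with both hairpins in these same arrays, so its differences from the controls are a description and carry no test. The other 33 genes were taken for their function, and all 33 were tested.

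The lysosome is the acid compartment in which cells break down macromolecules and lipids. Its hydrolases are made in the endoplasmic reticulum, most are tagged with mannose 6-phosphate and sorted to the lysosome, and a proton pump keeps the interior acid. Membrane proteins form its wall and carry ions and breakdown products across it. TFEB, which mTORC1 keeps in the cytoplasm of well-fed cells, turns on many lysosomal genes together by binding a short DNA element in their promoters. Naaa encodes N-acylethanolamine acid amidase, a lysosomal hydrolase that degrades palmitoylethanolamide and other fatty acid ethanolamides. Mettl3 encodes the catalytic subunit of the enzyme complex that places N6-methyladenosine on RNA.

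The study asked how loss of Mettl3 function changes gene expression in these cells. Cells had been infected with lentiviruses and kept in full medium; total RNA was labelled with biotin and hybridised to mouse exon arrays, 1 array per sample. The controls were 3 samples with a hairpin against luciferase, a gene that mouse cells lack. Another 2 samples carried Mettl3 shRNA #1 (hairpin 1) and 2 carried Mettl3 shRNA #2 (hairpin 2). All 7 samples thus share the cell line, the lentiviral infection and the medium, and they differ in the hairpin. Hairpins lower a transcript and do not delete the gene. The labels do not say whether replicates were separate infections or cultures, so a p-value here reflects how far these arrays scatter, and that scatter may be technical.

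A gene value was the median, on each array, of the log2 values of the gene's probe sets that passed a filter on dim signal. The median over all probe sets lay between 6.03 and 6.07 on the 7 arrays. An array has no true zero and probes differ in brightness, so values were compared between samples within a gene and not between genes. Mettl3 was at 10.38, 10.46 and 10.14 on the luciferase arrays, 8.97 and 8.67 with hairpin 1, and 8.71 and 8.66 with hairpin 2. Its mean fell by 1.57 on the log2 scale with both hairpins (SE 0.105, adjusted p = 0.000116, limma). No knockdown array reached the lowest control. Mean levels of 12 pluripotent stem cell markers, all measured, lay between 11.79 and 11.93 in controls and between 11.73 and 11.89 in knockdown samples, and none of the 12 passed the test (1 had an unadjusted p below 0.05). The RNA came from whole cultures, so a lower share of cells with a transcript and less of it per cell cannot be told apart.

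With both hairpins, 4 of the 33 members rose and none fell: Gusb, Hexa, Lipa and Cd63. That is 12.1% of the members, where 5.53% of all 16353 genes rose and 2.37% fell, or 7.9% in either direction (limma, Benjamini-Hochberg adjusted p below 0.05). At an unadjusted p below 0.05 there were 14 members higher and 1 lower, beside 3958 of all 16353 genes in either direction. The median difference of the 33 members was 0.060 on the log2 scale, beside 0.00045 for all genes. Of the members, 24 lay above 0 and 9 below it, and 26 lay within 0.25 of 0. Most members thus lay near their control level, while 2 glycosidases, a lipase and a membrane protein rose. In 7 of 17 other settings Gusb and Hexa were the 2 members called (6.06%). Without luciferase replicates 1, 2 and 3, the share of all genes called was 3.9%, 5.54% and 5%. It was 4.92% without hairpin 1 replicate 1 and 2.42% without the filter on dim probe sets. With a replicate block it was 3.3%, and with a crossed replicate block 5.85%. Both blocks gave the same differences as leaving out luciferase replicate 3. The difference for an uncalled member ran from -0.25 to 0.29, and the 95% interval of a member, before adjustment, reached a median of 0.184 to each side. The count of members that rose depended on how probe sets were joined into a gene: with their mean, 10 rose and 1 fell (33.3%, against 17.4% of all genes), and with median polish 9 rose and 1 fell (30.3%, against 15.1%). Centring each array on its median gene turned the split over all genes from 904 higher and 388 lower to 696 and 703, and among members gave 3 higher and 1 lower.

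**Figure D1:**
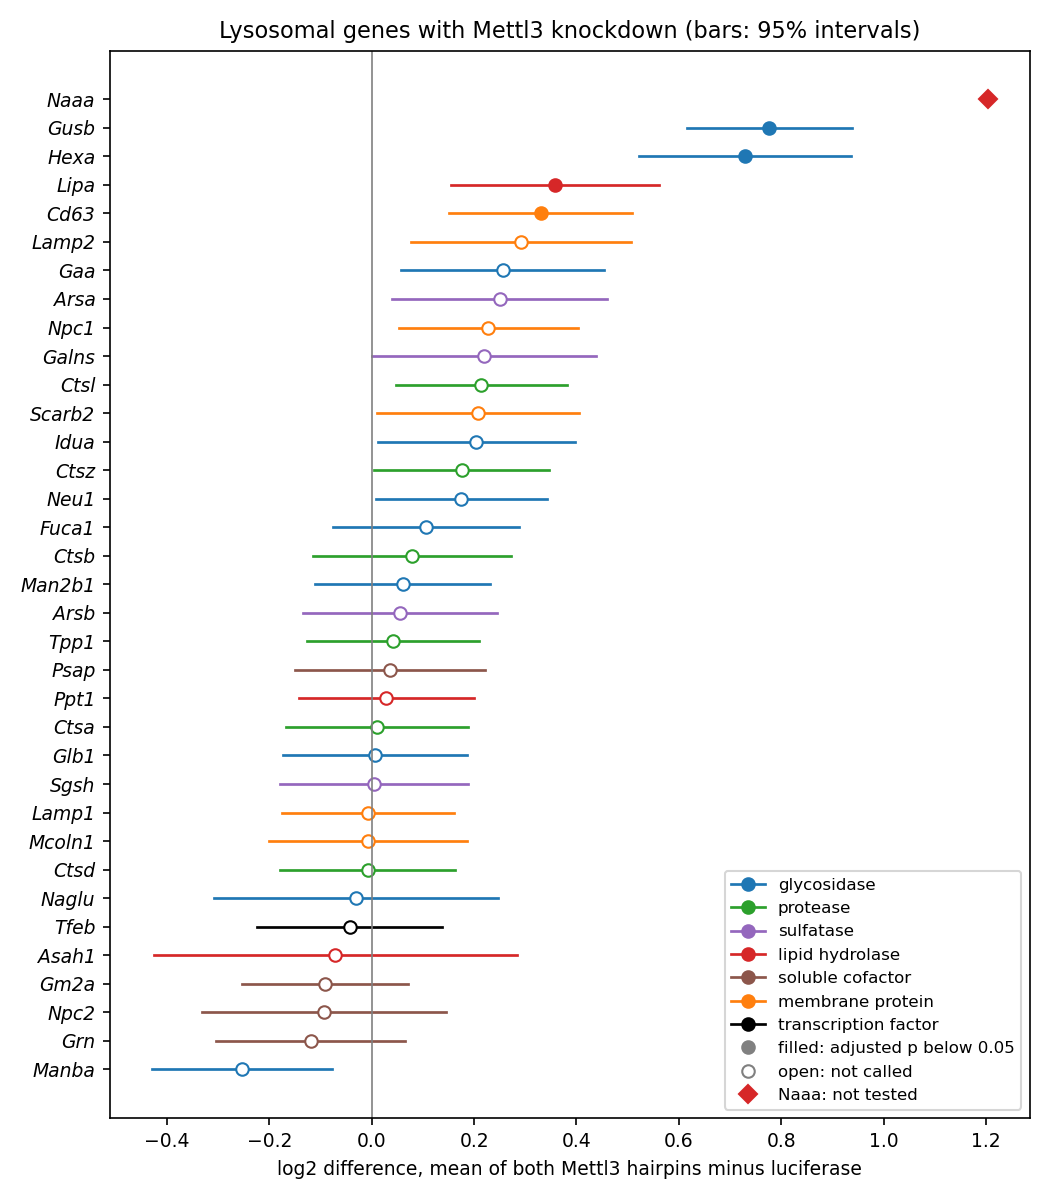
Log2 difference between the mean of both Mettl3 hairpins and luciferase for each lysosomal gene, ordered by size and coloured by role; bars are 95% intervals, filled points have an adjusted p below 0.05, and Naaa (diamond, 1.20) carries no test. Gusb (0.78), Hexa (0.73), Lipa (0.36) and Cd63 (0.33) are filled, and the other genes lie between -0.25 and 0.29.

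Naaa stood above every other member. It was at 7.74, 7.61 and 7.58 on the luciferase arrays, 8.81 and 8.87 with hairpin 1, and 8.73 and 8.98 with hairpin 2. All 4 knockdown arrays lay far above the highest control, and the hairpins overlapped each other. The control mean was 7.64 ± 0.0821 (SD, n = 3). Hairpin 1 had a mean of 8.84 ± 0.0446 (SD, n = 2), and for hairpin 2 it was 8.85 ± 0.174 (SD, n = 2). The difference was 1.20 for hairpin 1, 1.21 for hairpin 2 and 1.20 for both, which is 2.30-fold. By size of the rise with both hairpins it ranked 7 among the 16353 genes, just after Bhlhe40 at 1.23 and just before Sema6a at 1.19; over the settings tried the rank ran from 5 to 31, with 31 when dim probe sets were kept, 30 with the mean of probe sets and 27 with median polish. The hairpins were close to each other: hairpin 1 minus hairpin 2 was -0.0088 (95% interval -0.27 to 0.25, adjusted p = 0.993, limma). A choice by the rise with both hairpins favours genes in which they agree, so this closeness is no separate support. Over 18 processing settings Naaa had the largest rise of the members in 18, with values from 0.88 to 1.27.

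Single probe sets show how much of the transcript this value covers. Naaa had 13 probe sets, of which 11 passed the filter, and 10 of the 11 were higher by at least 0.5 with the hairpins, 5 of them by at least 1. All knockdown arrays lay above all controls in those 10, with a largest difference of 1.44. Among all kept probe sets of the array, 3.68% were higher by 0.5 and 12.2% had knockdown arrays above all controls. Naaa was chosen by its rise in these arrays, so its larger share follows from the choice and is no support for the rise. The remaining probe set of Naaa was its brightest, with a control mean of 10.43, and was lower by 0.29. The median of probe sets, used here, gives that one little weight; the mean of probe sets gave 0.88.

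**Figure D2:**
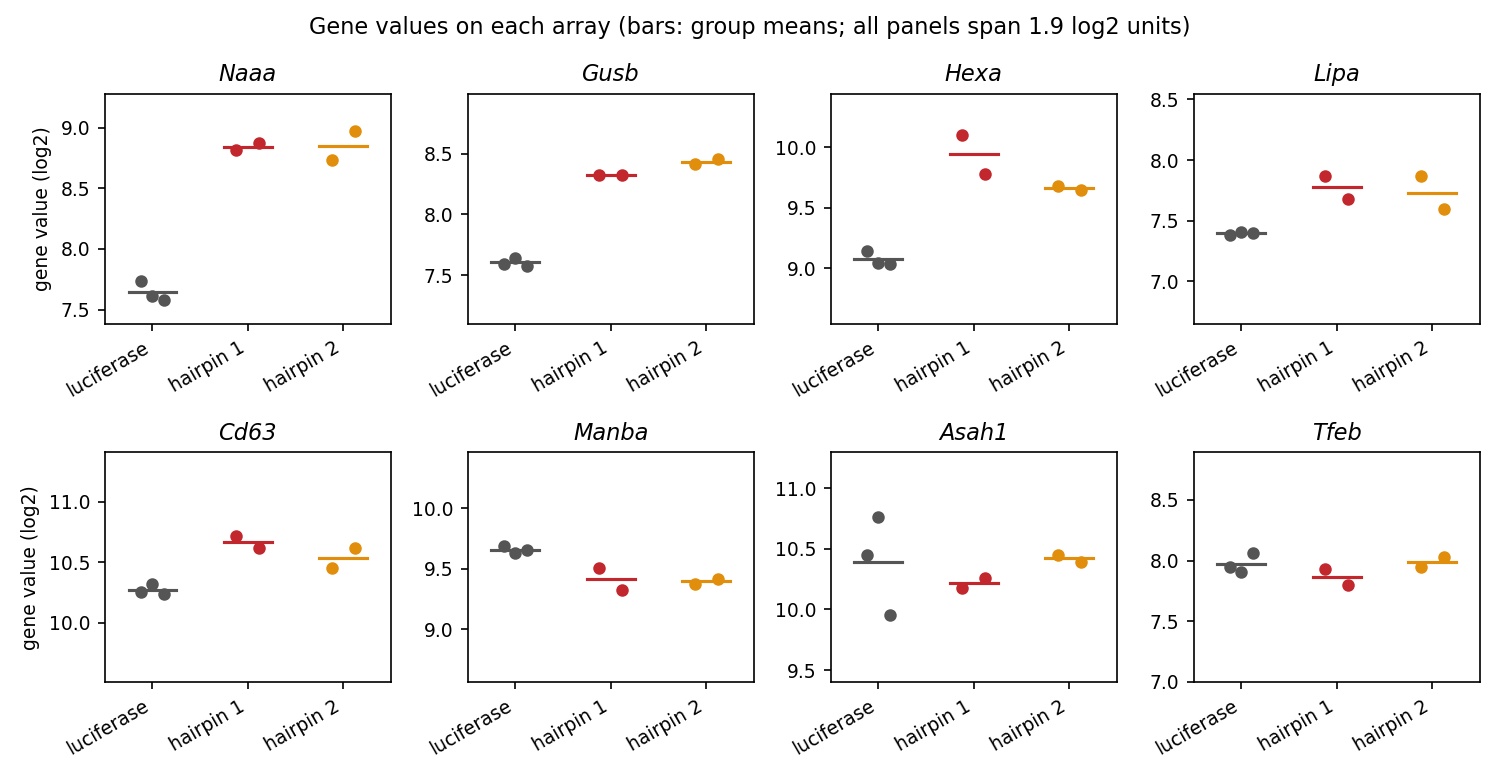
Log2 gene value on each array for Naaa, Gusb, Hexa, Lipa, Cd63, Manba, Asah1 and Tfeb, with 3 luciferase, 2 hairpin 1 and 2 hairpin 2 points and bars at the group means; every panel spans the same range. Knockdown points lie above all controls for Naaa, Gusb, Hexa, Lipa and Cd63, and below them for Manba; for Asah1 and Tfeb they overlap.

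Glycosidases cut sugars from glycoproteins, glycolipids and glycosaminoglycans, and they hold the clearest tested changes. Of 10 members in this class, 2 rose, none fell, and 8 lay above 0. Gusb, the beta-glucuronidase that trims glycosaminoglycans, was at 7.59, 7.64 and 7.58 in controls, 8.33 and 8.32 with hairpin 1, and 8.41 and 8.46 with hairpin 2. Every knockdown array was above every control, and replicates lay close together. It rose by 0.78 (SE 0.0724, 95% interval 0.62 to 0.94, adjusted p = 0.000413, limma), or 1.71-fold. The rise was 0.72 with hairpin 1 (adjusted p = 0.00196) and 0.83 with hairpin 2 (adjusted p = 0.00183), and the hairpins differed by -0.11 (95% interval -0.32 to 0.10). Of its 23 kept probe sets, 22 were above 0, 15 by at least 0.5, and 18 had no overlap between knockdown arrays and controls.

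Hexa encodes the alpha subunit of beta-hexosaminidase A, which degrades GM2 ganglioside. It was at 9.14, 9.05 and 9.04 in controls, 10.10 and 9.78 with hairpin 1, and 9.68 and 9.65 with hairpin 2. The groups did not overlap, and both hairpin 1 arrays lay above both hairpin 2 arrays. Hexa rose by 0.73 (SE 0.0924, 95% interval 0.52 to 0.94, adjusted p = 0.00188, limma), or 1.66-fold, with 0.87 for hairpin 1 (adjusted p = 0.00271) and 0.59 for hairpin 2 (adjusted p = 0.0200). Its hairpins differed by 0.28 (95% interval 0.01 to 0.55), which did not pass after adjustment (adjusted p = 0.564). All 15 of its probe sets were higher, by 0.57 to 0.84, and 14 of the 15 had knockdown arrays above all controls. The call with hairpin 2 alone was lost without luciferase replicate 1, 2 or 3 and without either hairpin 2 replicate, while the call with both hairpins held in every setting tried, as it did for Gusb.

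Among the other glycosidases, Gaa and Manba had the largest differences, in opposite directions, and neither passed. Gaa, the acid alpha-glucosidase that degrades glycogen, was at 9.29, 9.33 and 9.07 in controls, 9.44 and 9.31 with hairpin 1, and 9.59 and 9.59 with hairpin 2 (difference 0.26, SE 0.0887, adjusted p = 0.113). Of its knockdown arrays, 1 of hairpin 1 lay among the controls. Manba, the beta-mannosidase of the last steps of N-glycan breakdown, was at 9.69, 9.63 and 9.66 in controls, 9.50 and 9.32 with hairpin 1, and 9.37 and 9.42 with hairpin 2. All 4 knockdown arrays were below all controls, and the difference was -0.25 (SE 0.0787, 95% interval -0.43 to -0.08, adjusted p = 0.0815). It was the one glycosidase lower on every knockdown array. With arrays centred on the median gene it passed, at -0.31 (adjusted p = 0.0276). That was not the only such setting: over 17 settings its adjusted p (limma) ran from 0.0260 to 0.233, with differences from -0.31 to -0.21. Neu1, the sialidase, was higher by 0.17 without overlap (adjusted p = 0.188), and Glb1, Naglu, Man2b1, Fuca1 and Idua completed the class within the range from -0.25 to 0.78.

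The probe sets of Manba did not move alike. Of 27 kept, 8 were lower by at least 0.5, with a lowest difference of -0.81, while 7 were above 0, up to 0.38. The 8 that were lower by 0.5 all had control means of at least 9.76, and the other 19 ranged from 6.35 to 11.02. Across the array, 1.72% of kept probe sets were lower by 0.5. A test of whether the probe sets of a gene move alike, limma's diffSplice F test, called 4 of 33 members, beside 4.97% of all genes: Manba (adjusted p = 2.8e-10), Ctsa (0.00199), Gusb (0.00879) and Idua (0.0415). With the Simes form of the test, for which no share of all genes is given, Manba (0.00698) and Ctsa (0.00197) passed. Gusb (0.0635) and Idua (0.105) did not pass in that form. On simulated data this test called more unchanged genes than its threshold allows, so the values are given as a description only.

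**Figure D3:**
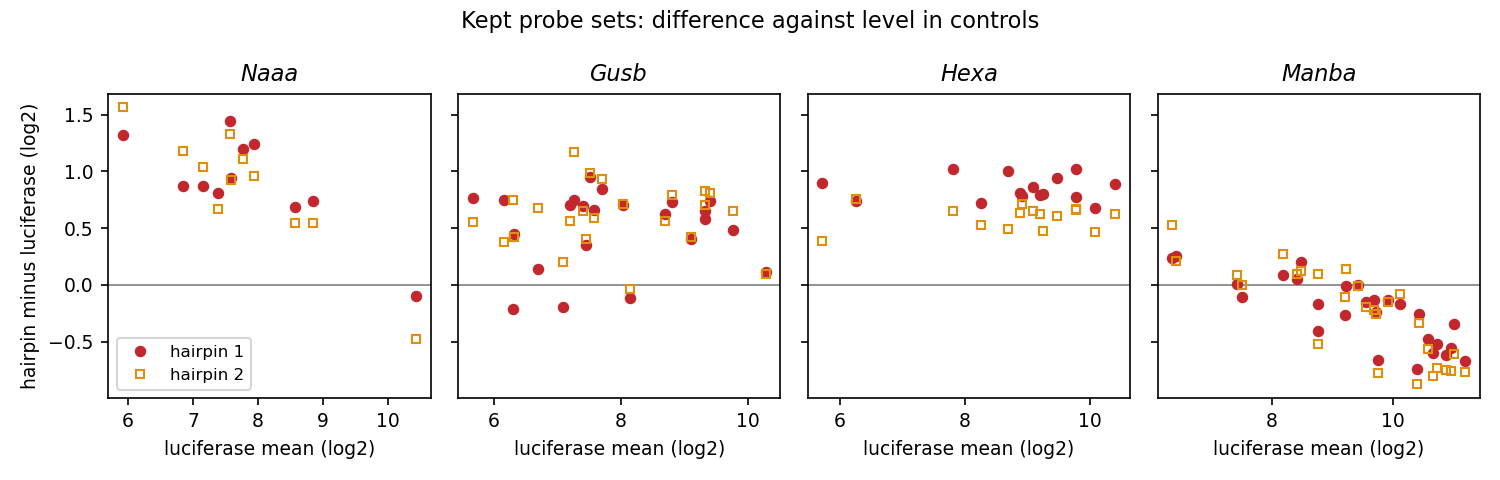
Difference of each hairpin from luciferase (log2, vertical) against the luciferase mean (log2, horizontal) for the kept probe sets of Naaa, Gusb, Hexa and Manba; filled circles are hairpin 1 and open squares hairpin 2. The 15 probe sets of Hexa lie in a band above 0, the brightest of Naaa is the single one below 0, and those of Manba spread to both sides.

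Lipid hydrolases other than Naaa numbered 3, and 1 of them rose. Lipa, the acid lipase that frees cholesterol and fatty acids from lipoprotein lipids, was at 7.38, 7.40 and 7.40 in controls, 7.87 and 7.68 with hairpin 1, and 7.87 and 7.60 with hairpin 2. Its replicates within a hairpin lay further apart than its controls, but no array overlapped between groups. It rose by 0.36 (SE 0.0913, 95% interval 0.15 to 0.56, adjusted p = 0.0418, limma). That call was lost without any one of luciferase replicates 1, 2 or 3, hairpin 1 replicate 1 or hairpin 2 replicate 1 (adjusted p between 0.0869 and 0.133), and without the filter on dim probe sets it was 0.18 (adjusted p = 0.697). It was also lost with brighter probe sets (0.27, adjusted p = 0.0856), with median polish (0.32, 0.0637) and with arrays centred on the median gene (0.30, 0.0811). Of 17 other settings, 11 did not call it. Asah1, the acid ceramidase and the nearest relative of Naaa, was at 10.45, 10.76 and 9.95 in controls, 10.18 and 10.26 with hairpin 1, and 10.45 and 10.39 with hairpin 2. Its controls spread more widely than the knockdown arrays, and the difference was -0.07 (95% interval -0.43 to 0.28, adjusted p = 0.823). Naaa, at 1.20, was chosen by its rise, so the difference of Asah1 was not tested against it. Ppt1, the palmitoyl-protein thioesterase, was the class's other member and was not called.

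Proteases of the lysosome gave no call: of the 6 members (Ctsa, Ctsb, Ctsd, Ctsl, Ctsz and Tpp1), 2 had an unadjusted p below 0.05, 5 lay above 0, and differences ran from -0.0079 to 0.21. Ctsl, the cysteine protease cathepsin L, was higher by 0.21 (adjusted p = 0.116) and Ctsz, the carboxypeptidase cathepsin Z, by 0.18 (adjusted p = 0.194). In both, all knockdown arrays lay above all controls. Over the 33 members, 9 had such a lack of overlap upwards (27.3%, against 13.4% of all genes) and 2 downwards, Gm2a and Manba (against 8.4%). Sulfatases, which remove sulfate from glycosaminoglycans and sulfatide, numbered 4, were all above 0 and ranged from 0.0049 to 0.25; none was called and 2 had an unadjusted p below 0.05. Arsa, the sulfatase that acts on sulfatide, had the largest: it was at 7.41, 7.45 and 7.45 in controls, 7.88 and 7.54 with hairpin 1, and 7.62 and 7.70 with hairpin 2 (0.25, SE 0.0938, adjusted p = 0.138). The groups did not overlap, yet hairpin 1 replicates differed from each other by more than the lower of them differed from the controls.

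Soluble cofactors present lipids to the enzymes or assist them. None of the 4 (Psap, Gm2a, Npc2 and Grn) was called or had an unadjusted p below 0.05, 1 lay above 0, and the range was -0.12 to 0.036. Gm2a, the activator protein that Hexa needs to act on GM2 ganglioside, was lower by 0.09 (adjusted p = 0.477) while Hexa rose. Psap, the precursor of the saposins, and Grn, progranulin, likewise stayed within that range.

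Of 6 membrane proteins, 1 rose and 4 lay above 0, with a range from -0.0075 to 0.33. Cd63, a tetraspanin of late endosomes and lysosomes, was at 10.25, 10.32 and 10.24 in controls, 10.71 and 10.62 with hairpin 1, and 10.45 and 10.62 with hairpin 2. All knockdown arrays lay above all controls. It rose by 0.33 (SE 0.0801, 95% interval 0.15 to 0.51, adjusted p = 0.035, limma), by 0.39 with hairpin 1 (adjusted p = 0.0418) and with a difference of 0.27 for hairpin 2 (adjusted p = 0.165). The call was lost without luciferase replicate 1, 2 or 3, hairpin 1 replicate 1 or hairpin 2 replicate 2 (adjusted p between 0.0611 and 0.129). Lamp2, a heavily glycosylated protein of the lysosomal wall, was at 9.05, 9.24 and 9.01 in controls, 9.49 and 9.21 with hairpin 1, and 9.43 and 9.43 with hairpin 2. Of its hairpin 1 arrays, 1 lay among the controls, and the difference was 0.29 (SE 0.0964, adjusted p = 0.0994). Npc1, which exports cholesterol, was at 9.69, 9.74 and 9.84 in controls, 10.05 and 10.002 with hairpin 1, and 9.90 and 9.99 with hairpin 2. It showed no overlap and a difference of 0.23 (SE 0.0783, adjusted p = 0.111). Keeping only brighter probe sets, with a mean above 7.57, brought Lamp2 (0.39, adjusted p = 0.00578), Gaa (0.38, 0.00506), Arsa (0.41, 0.00202) and Npc1 (0.24, 0.037) past the threshold, with 9 of 32 members called against 15% of all genes.

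Taken one hairpin at a time, against the same 3 luciferase arrays, the counts were smaller. With hairpin 1, 3 members rose (Gusb, Hexa and Cd63) and none fell; that is 9.09%, against 3.97% of all genes higher, 1.93% lower and 5.89% in either direction. With hairpin 2, Gusb and Hexa rose and none fell; that is 6.06%, against 2.71% of all genes higher, 1.08% lower and 3.79% in either direction. At an unadjusted p below 0.05, 8 members were higher and 1 lower with hairpin 1, and 7 higher and 1 lower with hairpin 2. Of all 16353 genes, 3629 were below 0.05 with hairpin 1 and 3059 with hairpin 2, in either direction. The call of Cd63 with hairpin 1 was lost without any one of the 7 arrays, which left Gusb and Hexa. The median difference of the 33 members was 0.037 with hairpin 1 and 0.12 with hairpin 2. Between the hairpins no member passed the test, where 17 of all genes did (0.104%, with 0.055% higher in hairpin 1 and 0.0489% lower, limma). An unadjusted p below 0.05 was found for 2 members, Hexa and Lamp1, and for 1435 of all 16353 genes. Lamp1, a common marker of the lysosomal wall, was at 11.80, 11.90 and 11.78 in controls, 11.68 and 11.67 with hairpin 1, and 11.98 and 11.94 with hairpin 2. Hairpin 1 arrays thus lay below all controls and hairpin 2 arrays above them, a difference between hairpins of -0.29 (95% interval -0.51 to -0.07, adjusted p = 0.421).

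Tfeb itself was at 7.95, 7.90 and 8.06 in controls, 7.93 and 7.80 with hairpin 1, and 7.95 and 8.03 with hairpin 2. Its groups overlapped, and the difference was -0.04 (95% interval -0.22 to 0.14, adjusted p = 0.786, limma). In the short element through which TFEB acts the core letters are CACGTG, and 10 of the 30 members with a promoter in the RefSeq table for GRCm38.p6 hold them within 250 bases before and 50 after the start (33.3%). Over all 27025 genes of the table the share was 8.09%. The longer form, with GT before the core and AC after it, was in none of the 32 member promoters and in 107 of all 32851 (0.326%). Both motifs read the same on either strand. The members with the core were Arsa, Ctsa, Ctsd, Ctsl, Gaa, Glb1, Lamp1, Mcoln1, Naglu and Sgsh, whose median difference with both hairpins was 0.0055 (range -0.03 to 0.26). The 19 members without it, Naaa left aside, had a median of 0.11 (range -0.25 to 0.78).

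None of Naaa, Gusb, Hexa, Lipa and Cd63 had CACGTG in this window. The promoters of the 3 genes with the largest differences are shown first, then those of Lamp1 and Mcoln1, the calcium channel of the lysosome, as members that hold the core several times. Capitals mark CACGTG, and each run is 300 bases in the direction of transcription, from RefSeq, build GRCm38.p6. Naaa lies at chr5:92278132-92278431 on the minus strand, Gusb at chr5:130003000-130003299 on the minus strand, Hexa at chr9:59539290-59539589 on the plus strand, Lamp1 at chr8:13158911-13159210 on the plus strand and Mcoln1 at chr8:3500269-3500568 on the plus strand.
Naaa: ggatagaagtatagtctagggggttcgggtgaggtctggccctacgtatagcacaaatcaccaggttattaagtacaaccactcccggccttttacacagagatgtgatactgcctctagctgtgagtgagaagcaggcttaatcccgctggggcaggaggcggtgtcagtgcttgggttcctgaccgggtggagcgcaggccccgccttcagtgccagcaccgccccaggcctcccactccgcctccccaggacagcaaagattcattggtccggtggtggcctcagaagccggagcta
Gusb: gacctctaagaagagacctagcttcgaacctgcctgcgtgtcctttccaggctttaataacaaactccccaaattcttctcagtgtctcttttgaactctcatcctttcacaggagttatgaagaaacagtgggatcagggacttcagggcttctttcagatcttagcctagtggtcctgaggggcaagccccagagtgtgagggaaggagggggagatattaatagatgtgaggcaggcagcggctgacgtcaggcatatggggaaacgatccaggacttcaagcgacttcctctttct
Hexa: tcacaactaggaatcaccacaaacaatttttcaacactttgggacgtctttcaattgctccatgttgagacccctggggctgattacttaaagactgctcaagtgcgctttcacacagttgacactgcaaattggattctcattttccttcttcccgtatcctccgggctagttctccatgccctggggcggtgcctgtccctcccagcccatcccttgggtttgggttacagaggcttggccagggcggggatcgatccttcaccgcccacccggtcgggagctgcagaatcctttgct
Lamp1: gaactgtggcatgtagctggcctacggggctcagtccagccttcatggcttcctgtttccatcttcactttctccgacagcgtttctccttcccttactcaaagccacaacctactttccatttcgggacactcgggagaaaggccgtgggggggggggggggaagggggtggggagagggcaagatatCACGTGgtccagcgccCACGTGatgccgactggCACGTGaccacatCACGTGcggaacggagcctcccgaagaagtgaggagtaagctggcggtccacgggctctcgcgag
Mcoln1: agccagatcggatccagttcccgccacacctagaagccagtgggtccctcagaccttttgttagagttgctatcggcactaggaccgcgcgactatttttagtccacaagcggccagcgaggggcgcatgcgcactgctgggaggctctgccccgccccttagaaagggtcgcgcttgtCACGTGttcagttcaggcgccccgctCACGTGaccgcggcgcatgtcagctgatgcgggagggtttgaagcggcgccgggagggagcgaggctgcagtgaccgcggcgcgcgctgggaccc
No capitals appear in the first 3 runs, while Lamp1 has 4 matches, starting at -61, -45, -28 and -15 from the gene's start, and Mcoln1 has 2, at -71 and -45. A match is a run of letters and not a measured binding site, and its absence concerns this window only. GC content was 58.7% for Naaa, 49.7% for Gusb, 53.3% for Hexa, 60.7% for Lamp1 and 65% for Mcoln1. Of the 12 nearest tested genes on the chromosome, 4 around each of Naaa, Gusb and Hexa, 1 was called, Parp6 beside Hexa (0.43, adjusted p = 0.04997, limma).

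Lysosomal genes outside the named set held changes in both directions. Among 30 further hydrolases tested, 2 rose and 1 fell (10%, beside 7.9% of all genes), with a median of 0.083: Arsk, an arylsulfatase, rose by 0.46 (adjusted p = 0.0115), Pla2g15, the lysosomal phospholipase A2, by 0.33 (0.047), and Ctsf, cathepsin F, fell by 0.46 (0.0153). Each of these calls was lost without luciferase replicate 1, that of Ctsf also without hairpin 2 replicate 1, and that of Pla2g15 without any of 6 single arrays. Each was also lost without the filter on dim probe sets and with a replicate block. Among 30 further membrane proteins, 4 rose and 2 fell (20%), with a median of 0.14. Cd68, the macrosialin of the lysosomal wall, was at 10.07, 10.17 and 10.06 in controls, 9.12 and 9.27 with hairpin 1, and 9.25 and 9.36 with hairpin 2. It fell by 0.85 (SE 0.0812, adjusted p = 0.000449), which was opposite in direction to the members that rose. Cln3, a membrane protein lost in juvenile Batten disease, rose by 0.45 (adjusted p = 0.00858), and the amino acid exporter Slc36a1 rose by 0.38 (0.0303) and the nucleoside transporter Slc29a3 fell by 0.37 (0.029). Leaving out single arrays ended the call of Slc36a1 in 5 cases and of Slc29a3 in 6, and of Cd68 and Cln3 in none. With a replicate block Cln3 did not pass (adjusted p = 0.0554, limma), while Cd68 passed in every setting tried.

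The machinery around the enzymes is read against the same 7.9% of all genes called, and against 3958 of 16353 genes with an unadjusted p below 0.05. None of 21 subunits of the vacuolar ATPase, the proton pump, was called (3 had an unadjusted p below 0.05), and the largest differences were -0.26 for Atp6v0d2 and 0.25 for Atp6v1g1. None of 22 autophagy genes was called (1 with an unadjusted p below 0.05), with Gabarapl2 at -0.32 and Ulk1 at 0.19. Of 12 genes that sort enzymes to the lysosome, 2 rose (16.7%): Cln6, which helps enzymes leave the endoplasmic reticulum, by 0.44 (adjusted p = 0.0132) and Gnptab, which starts the mannose 6-phosphate tag, by 0.33 (0.0291). The call of Gnptab was lost without any one of the 7 arrays and that of Cln6 without hairpin 2 replicate 2. Both were also lost without the filter on dim probe sets and with a replicate block. Of 18 genes of the TFEB family and its mTORC1 control, 1 rose and 2 fell (16.7%). Rragd, a Rag GTPase that links mTORC1 to the lysosome, was at 8.24, 8.62 and 8.35 in controls, 9.47 and 9.18 with hairpin 1, and 9.21 and 9.44 with hairpin 2. It rose by 0.92 (SE 0.116, adjusted p = 0.00186) with no overlap between groups. Mitf, a relative of Tfeb, fell by 0.47 (adjusted p = 0.0089), and Rheb, the GTPase that activates mTORC1, fell by 0.31 (0.0498), a call lost without any one of the 7 arrays. Of 22 other genes that handle N-acylethanolamines and ceramides, the lipids on which Naaa and Asah1 act, 3 rose and none fell (13.6%): Sgms2, a sphingomyelin synthase, by 0.61 (0.0111), Pla2g4e, which makes the precursors of N-acylethanolamines, by 0.54 (0.00454), and Cers2, a ceramide synthase, by 0.45 (0.00895). Without the filter on dim probe sets Sgms2 (0.44, adjusted p = 0.139) and Mitf (-0.35, adjusted p = 0.0862) did not pass, and with brighter probe sets Mitf was at -0.19 (adjusted p = 0.118). Cers2 was lost with a replicate block (0.42, adjusted p = 0.0655).

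**Figure D4:**
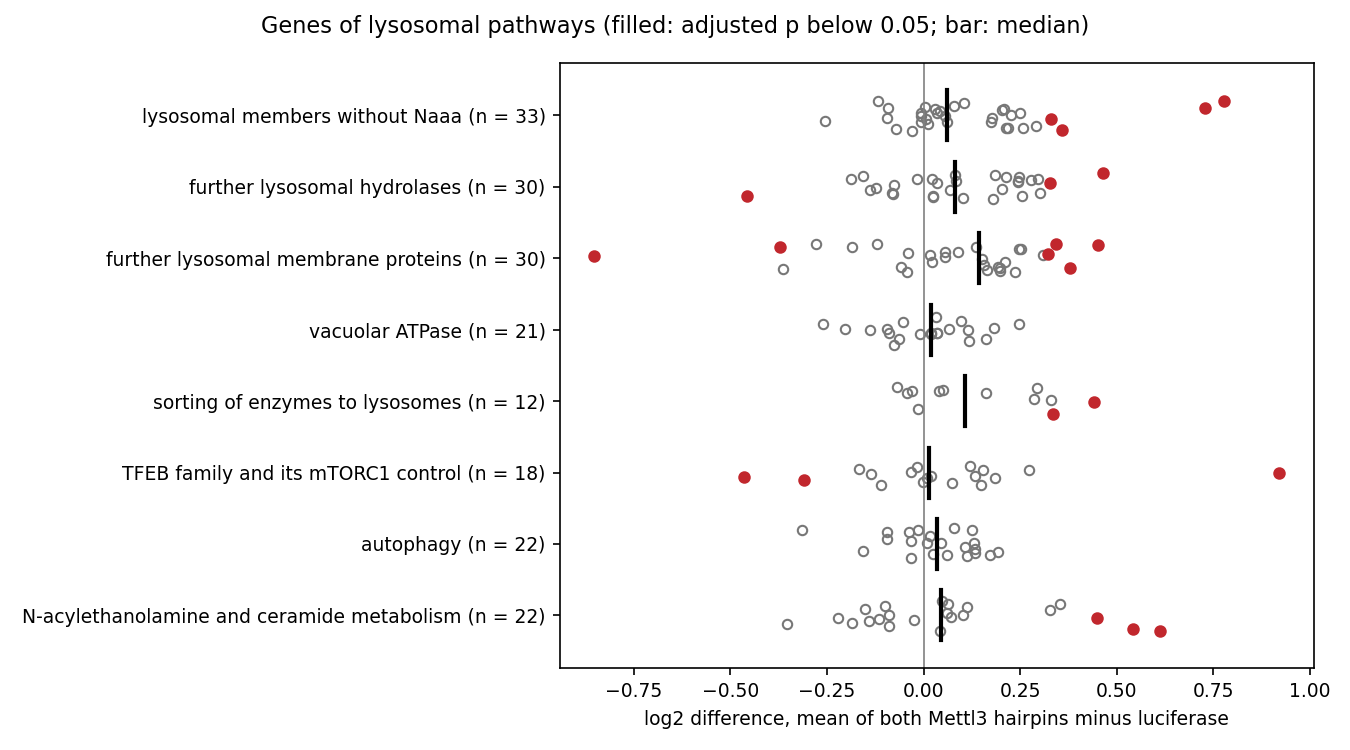
Log2 difference between both Mettl3 hairpins and luciferase for the tested genes of each lysosomal list, 1 point per gene, with a bar at the median; filled points have an adjusted p below 0.05. Medians lie between 0.013 and 0.14, and the extremes are Cd68 at -0.85 and Rragd at 0.92.

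Markers of other cells are also read against the 7.9% of all genes called. Of 8 macrophage markers tested (cells rich in lysosomes), none rose and 2 fell (25%), Adgre1 by 0.47 (adjusted p = 0.0080, limma) and Itgam by 0.32 (0.0411). The mean level of the 8 was 7.04 to 7.10 in controls and 6.79 to 6.92 in knockdown samples. Without the filter on dim probe sets Adgre1 was at -0.016 (adjusted p = 0.969) and Itgam at -0.10 (adjusted p = 0.577). The call of Itgam was lost in 12 of 17 other settings, among them leaving out any array but hairpin 1 replicate 1, and that of Adgre1 also with the mean of probe sets (-0.11, adjusted p = 0.179) and a replicate block (-0.44, adjusted p = 0.0592). Of 14 fibroblast markers 4 lay above 0 and 10 below, with a median of -0.093. Those that rose were 2 (14.3%), Acta2 by 1.07 and Tagln by 0.78, both of the contractile cytoskeleton. Without the filter on dim probe sets Tagln did not pass (0.77, adjusted p = 0.0721). The mean level of the 14 was 7.61 to 7.74 in controls, 7.77 to 7.88 with hairpin 1 and 7.63 to 7.65 with hairpin 2. Of 17 endoderm markers 1 fell (5.88%), Cubn by 0.76, and their mean level was 7.78 to 7.85 in controls and 7.68 to 7.73 in knockdown samples. The mean level of the 33 members was 9.33 to 9.41 in controls and 9.45 to 9.53 in knockdown samples. The part of these markers in the differences of the lysosomal genes was not tested.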

How the data were processed

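The authors deposited 1 log2 value per probe set and array, mostly for single exons; RMA and R 2.11.1 were used per the submitters' processing notes. Which RMA package, probe set definition, genome build or filter they used is not given in the sources used here. This method equalises the arrays, so a rise or fall shared by most transcripts is removed from these values.

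Gene symbols came from the platform annotation: 311384 probe sets had 1 symbol, 6385 several and 883569 none. Older symbols were updated through RefSeq GRCm38.p6 (45560 probe sets; 834 symbols stayed unmatched). Gene values were medians of probe sets with 1 symbol and a mean over the 7 arrays above 6.02, the median of all probe sets, with at least 3 required (229811 probe sets). For the members, 574 of 617 passed. The 3 groups entered 1 linear model (lmFit and eBayes of limma 3.58.1, R 4.3.3) over all 7 arrays with 1 mean per group, leaving 4 residual degrees of freedom, and p-values were adjusted by Benjamini-Hochberg over all 16353 genes. A gene was called at an adjusted p below 0.05. The few arrays limit the precision. The steps were tested on simulated data.

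The members and gene lists were chosen with earlier results of these data known. Values on every array were given for Mettl3, Naaa, Asah1, Tfeb, each member called and the 5 uncalled members with the largest difference; Lamp1, Cd68 and Rragd were added after their values were seen. From each list, up to 4 called genes with the largest change were named, or the 2 largest differences where none was called. Listed genes whose symbols had no tested probe sets are left out of the counts. N6-methyladenosine and METTL3 protein were not analysed here. Alternatives were other filters, the mean or median polish of probe sets, centring, quantile normalization, a trended spread, a replicate block, only the groups compared, symbols as given and leaving out each array.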

Additional observations from a re-analysis of the deposited data

Results flagged for a closer look

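One value stood out between the hairpins among the genes named here. Tagln, a contractile cytoskeleton gene listed as a fibroblast marker, was higher with hairpin 1 than with hairpin 2 by 0.83 on the log2 scale (adjusted p = 0.0438, limma), and that test of the difference passed. It did not pass in 14 of 18 other settings, among them leaving out any one of the 7 arrays (adjusted p between 0.0635 and 0.335); without the filter on dim probe sets the difference was 0.23 (adjusted p = 0.861) and with the mean of probe sets 0.31 (adjusted p = 0.354). Groups of 2 or 3 arrays are too small for a check of single outlying samples.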

How the results depend on the processing

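Gusb and Hexa rose with both hairpins in every setting tried, no called gene named here changed direction, and Naaa kept the largest rise of the members. Counts moved more, and except where fewer samples were fitted the cause was not tested. Without a filter on dim probe sets, calls over all 19993 genes tested were 484 for both hairpins, 320 for hairpin 1, 92 for hairpin 2 and 0 between hairpins. Members called were 2 for both and 1 for hairpin 2, and the members' median was 0.11. Keeping brighter probe sets left 12271 genes and 32 members to test. Of the genes it called 1836 for both (15%), 1503 for hairpin 1 (12.2%), 1073 for hairpin 2 (8.74%) and 34 between hairpins. Members called were 9 for both (28.1%), 6 for hairpin 1 (18.8%) and 7 for hairpin 2 (21.9%). The mean of probe sets gave 2840, 2259, 1626 and 79 genes and 11, 5 and 4 members, and median polish gave 2469, 2072, 1439 and 76 genes and 10, 6 and 4 members. Centring gave a members' median of 0.0040, beside -0.056 for all genes. A trended spread gave 29 genes between hairpins, and only the groups compared gave 2. With a replicate block, calls were 540, 460, 208 and 3 genes, and 2 members for both and 1 for hairpin 2. Lipa (0.36, adjusted p = 0.115, limma) and Cd63 (0.31, adjusted p = 0.153, limma) were lost. Only luciferase has a replicate 3, so a block gives that array no weight in the differences. Naaa was at 1.17 with either block and also without luciferase replicate 3. Deviations of same-numbered arrays from their group means correlated between -0.26 and 0.083. With 2 arrays per hairpin, the deviations within a hairpin are exact opposites, so these correlations cannot show whether replicate numbers pair the samples. A crossed replicate block, chosen after seeing the data, called 956 genes for both hairpins (5.85%), 423 for hairpin 2 (2.59%) and 3 between hairpins. It called 2 members for both (6.06%) and 1 for hairpin 2 (3.03%). Leaving out single arrays gave 605 to 1098 genes and 2 to 5 members for both, 271 to 729 genes and 2 members for hairpin 1, 63 to 577 genes and 1 to 2 members for hairpin 2, and 0 to 4 genes and 0 members between hairpins. With the Simes form of the exon test Manba and Ctsa passed, and no share of all genes is given for it. For both hairpins, fitting only the groups compared is the fit already given; Tfeb had no value with symbols as given, and Naglu was not tested on brighter probe sets. Precision is limited by the 7 arrays.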
